A study of Mus musculus with 6 samples.

Results

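MC38 and LLC are mouse carcinoma lines, and their transcript levels were compared over 4 arrays, the 2 of MC38 against the 2 of LLC, out of 6 arrays in the series. Arrays were chosen by the cell line label. MC38 is labelled a colon adenocarcinoma and LLC a Lewis lung carcinoma. Each line had 1 array labelled sh Ctrl, with the genotype label wild type, and 1 labelled sh Spp1, with the genotype label Spp1 depletion. The hairpin is directed at Spp1, the gene of the secreted glycoprotein osteopontin. The labels do not say whether the sh Ctrl cells carried a control hairpin, and Spp1 was not analysed here, for no probe set with a single gene symbol carries its name. All cells grew in DMEM with 10% fetal bovine serum, away from any host tissue, and each array is 1 sample. The AE17 arrays were left out of the fit.

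The tissue a carcinoma arose in is usually read from transcription factors and from the structural and secreted proteins they control. Intestinal epithelium is marked by the factors Cdx1 and Cdx2 and by the brush border protein villin, and lung epithelium by Nkx2-1 and the surfactant proteins. Epithelial cells in general are held together by E-cadherin, claudins and desmosomes over a keratin skeleton. Cells that have left the epithelial state carry vimentin, fibronectin and the factors Snai2, Twist1 and Zeb1. Hox genes lie in 4 clusters and record position along the body axis, and cells in culture can keep that record.

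Levels are log2 intensities after quantile normalization, and a pair of levels is given sh Ctrl first and sh Spp1 second. A difference is MC38 minus LLC, so a negative value is higher in LLC. Genes were tested where the mean over the 4 arrays reached 4.68, the 30th percentile of all probe sets, called the brightness floor here. Levels below it are set largely by background, so the size of a difference from such a level is approximate. Within a line the 2 arrays carry different shRNA labels, so they do not replicate each other. What the fit counts as error is culture and array variation plus whatever the hairpin changed in 1 line but not the other, and it rests on 1 residual degree of freedom. The labels do not say that cultures were grown separately.

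Of 16645 genes tested with limma and Benjamini-Hochberg adjustment, 1058 or 6.36% differed between the lines at an adjusted p under 0.05. Higher in MC38 were 587, or 3.53%, and higher in LLC 471, or 2.83%. All 1058 had the same sign in the sh Ctrl pair and in the sh Spp1 pair. The fit makes this certain, because its error is the disagreement between the pairs, so it is no separate support. By size alone, 898 genes or 5.4% were at least 2-fold apart in the same direction in both pairs, 498 (2.99%) higher in MC38 and 400 (2.4%) higher in LLC. Both rules were met by 871 genes. The median difference over all tested genes was 0, with an interquartile range from -0.24 to 0.24, while the median size among called genes was 1.65. Across probe sets the arrays of LLC correlated at r = 0.978, those of MC38 at 0.981, and arrays of different lines at 0.955 to 0.965, with probe sets sharing the array design and so not independent. Leaving out single arrays left 956 calls without LLC sh Ctrl, 618 without LLC sh Spp1, 601 without MC38 sh Ctrl and 688 without MC38 sh Spp1, in fits with no shRNA term. Of the 1058 calls, 410 were made in each of those 4 fits. A gene described below kept its call in all 4 unless the text names the arrays whose removal ended it.

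**Figure D1:**
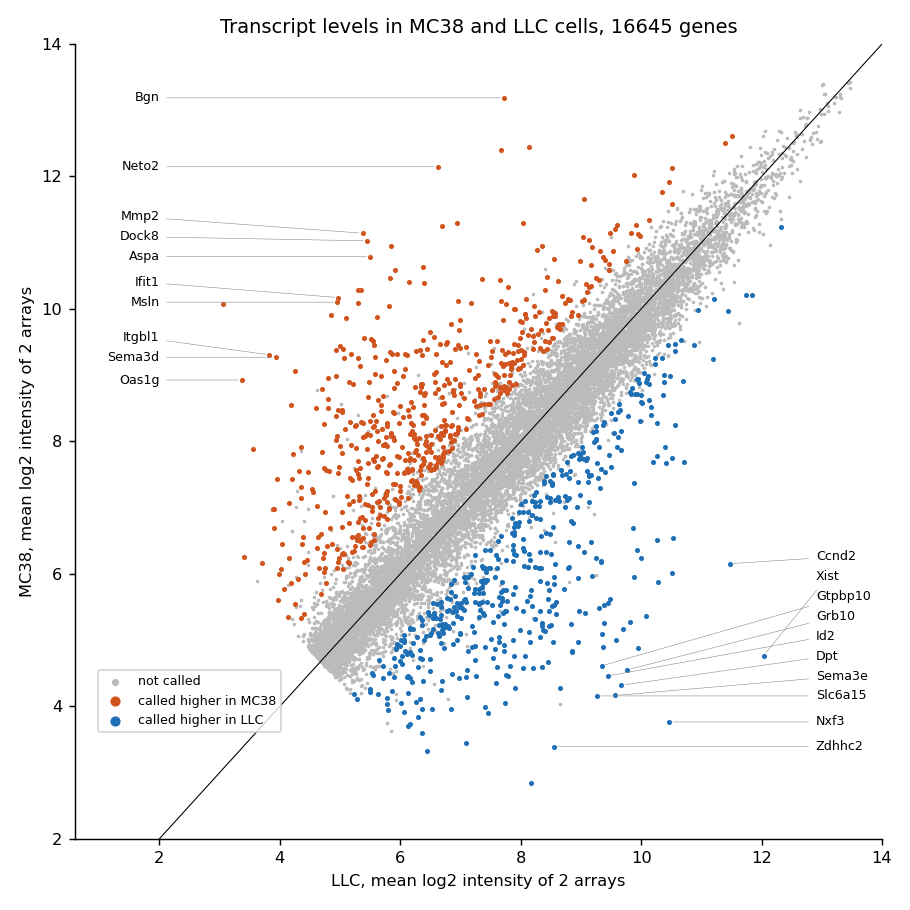
Mean log2 intensity over the 2 LLC arrays (x axis) and the 2 MC38 arrays (y axis) for 16645 tested genes, with the line of equality. Orange and blue points are the 587 genes called higher in MC38 and the 471 called higher in LLC. The 10 named genes with the largest difference in each direction are labelled, and Xist and Nxf3 lie lowest against their LLC level.

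Xist (Entrez gene 213742), the noncoding RNA that coats the inactive X chromosome in female cells, had the largest difference of any tested gene. It was at 12.10 and 11.96 in LLC and at 5.09 and 4.44 in MC38, a difference of -7.27 ± 0.22 (SE) or 154-fold (limma adjusted p = 0.000787). Nxf3 (Entrez gene 245610), a member of the nuclear RNA export factor family, was at 10.47 on both LLC arrays and at 3.68 and 3.85 in MC38. Its difference was -6.71 ± 0.19, or 104-fold. In both genes the 2 arrays of a line lay within 0.7 of each other. The lines did not overlap, in genes picked for the largest differences.

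In the other direction Mmp2 (Entrez gene 17390), the gelatinase that cleaves basement membrane collagen, stood first among genes with an established symbol. It was at 5.75 and 5.01 in LLC and 11.65 and 10.64 in MC38, a difference of 5.77 ± 0.20 or 54.4-fold (limma adjusted p = 0.000948). Dock8, an activator of the small GTPase Cdc42, was at 5.56 and 5.34 in LLC and 10.82 and 11.24 in MC38. Neto2, an auxiliary subunit of kainate receptors, was at 5.91 and 7.33 against 12.21 and 12.09. Itgbl1, an integrin beta-like protein, and Aspa, the enzyme that splits N-acetylaspartate, differed by 5.48 and 5.29. Macc1, a gene first described in metastatic colon cancer, was at 4.86 and 3.63 in LLC and 8.62 and 9.49 in MC38, a difference of 4.81 ± 0.48.

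Higher in LLC were also Dpt, Ccnd2, Grb10, Zdhhc2, Slc6a15, Id2, Gtpbp10, Stk39 and Colec12, with differences from -4.57 for Colec12 to -5.35 for Dpt. Id2, an inhibitor of basic helix-loop-helix factors, was at 9.66 and 9.22 in LLC and 4.18 and 4.74 in MC38. Zdhhc2, a palmitoyltransferase, was at 8.23 and 8.89 against 3.47 and 3.31, so that both MC38 levels lay below the floor. Slc6a15, a transporter of branched-chain amino acids, was at 9.01 and 9.54 against 4.32 and 3.99.

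Neither line carried the epithelial program of its labelled tissue at a level that set it apart. Of 23 intestinal markers 18 were tested, and 0 were called. Cdx2 was at 5.32 and 5.77 in LLC and 5.38 and 5.23 in MC38, and Cdx1 was at 5.27 and 5.11 against 5.20 and 4.94. The villin gene Vil1 was at 4.78 and 5.11 against 4.86 and 4.92, and the goblet cell mucin Muc2 at 5.66 and 5.95 against 5.76 and 5.82. Fabp1, Fabp2 and Car1 were below the floor in the mean. The summed intensity of the 21 intestinal markers on the array was 752 and 859 in LLC and 794 and 806 in MC38, higher in MC38 in the sh Ctrl pair and lower in the sh Spp1 pair.

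Lung epithelial markers were also mostly near the floor in both lines. Of 20 markers 17 were tested, 0 were called higher in MC38 and 1 higher in LLC, 5.88% against 6.36% over all genes. The lung factor Nkx2-1 was at 5.27 and 5.16 in LLC, against 5.08 and 5.18 in MC38. The surfactant gene Sftpc was at 4.80 and 4.82 against 4.88 and 5.12, and the club cell gene Scgb1a1 was below the floor on all 4 arrays. The called gene was Foxa2, a forkhead factor of endoderm, at 7.25 and 7.21 in LLC and 6.30 and 6.28 in MC38. Its difference of -0.95 ± 0.19 had a limma adjusted p of 0.0487, and the call ended when any of the 4 arrays was left out and under each of the 3 other scalings. Abca3 and Etv5, which other cell types also express, were the brightest of the list, Abca3 at 7.95 and 8.20 against 8.14 and 8.33. The summed intensity of the 20 lung markers was 1450 and 1470 in LLC and 1250 and 1380 in MC38, higher in LLC in both pairs.

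General epithelial markers were mostly near the floor in both lines. Epcam was below the floor on all 4 arrays, at 3.71 and 3.92 in LLC. The E-cadherin gene Cdh1 was at 5.51 and 5.78 against 5.74 and 5.79, Cldn7 and Esrp1 were below the floor in the mean, and the desmosomal Dsp was at 4.79 and 4.91 against 4.48 and 4.73. Of 28 tested markers 24 were not called, 1 was higher in MC38 and 3 were higher in LLC. The 3 in LLC were the simple-epithelium keratin partners Krt18 and Krt8 and the tight junction protein Ocln. Krt18 was at 8.96 and 9.82 in LLC and 5.37 and 5.71 in MC38, a difference of -3.85 ± 0.22 (limma adjusted p = 0.00176). Krt8 was at 9.09 and 8.53 against 6.92 and 7.36, with a call lost without LLC sh Ctrl or without MC38 sh Ctrl, and Ocln at 7.35 and 7.09 against 5.70 on both MC38 arrays. The MC38 gene was Jup, plakoglobin of adherens junctions and desmosomes, at 6.33 on both LLC arrays and 8.81 and 9.94 in MC38. Krt19, another simple-epithelium keratin, was not called, at 5.20 and 5.28 against 5.12 and 5.35.

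**Figure D2:**
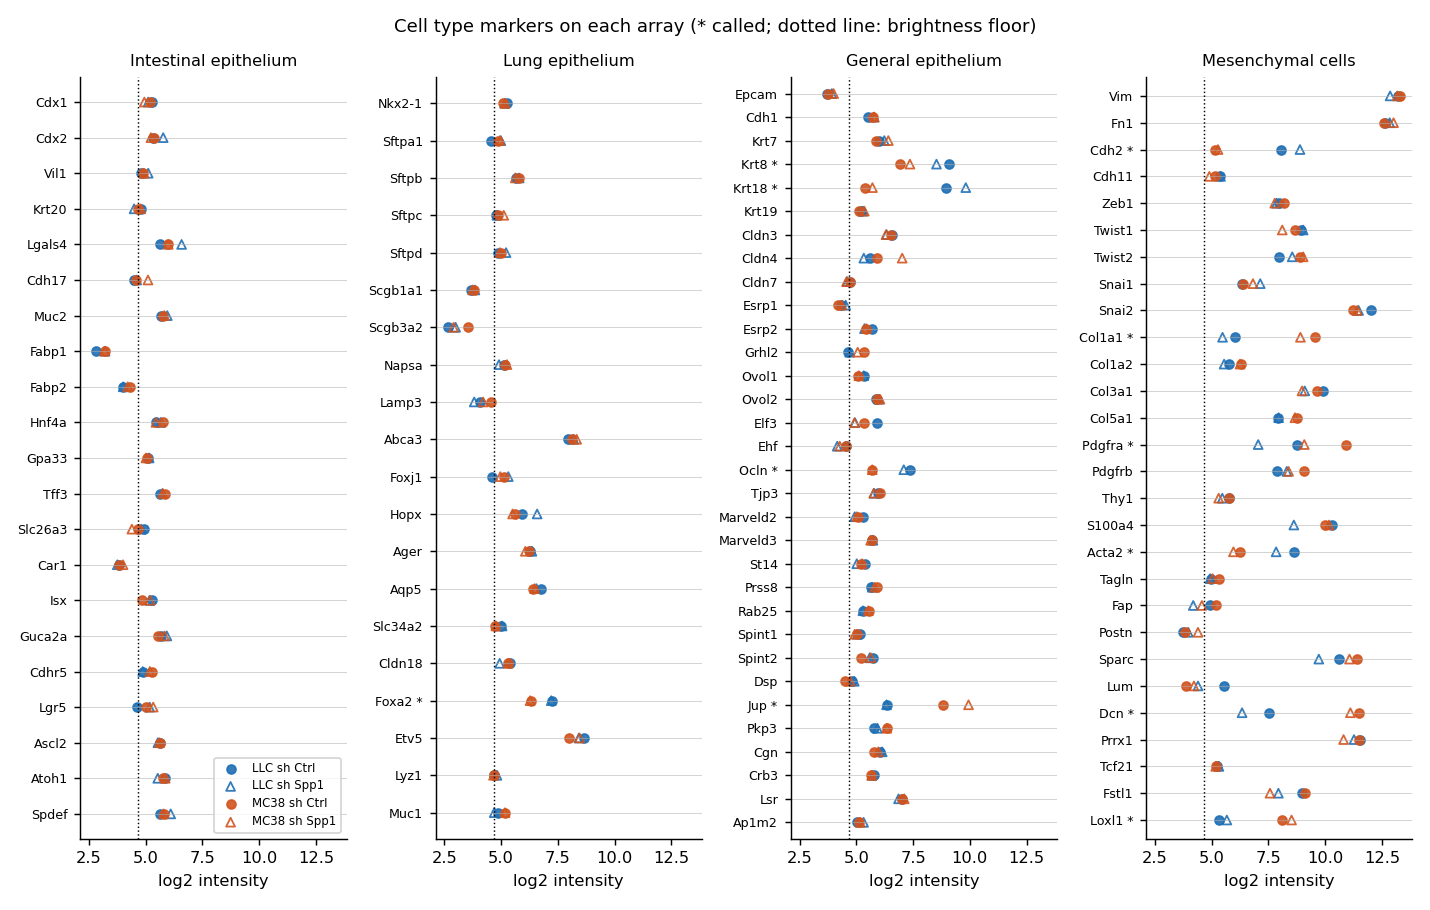
Log2 intensity (x axis) of every marker with a probe set on each of the 4 arrays, for intestinal, lung and general epithelium and mesenchymal cells. Blue marks LLC and orange MC38, filled circles sh Ctrl and open triangles sh Spp1, the dotted line the brightness floor of 4.68 and an asterisk a called gene. Most intestinal and lung markers of both lines lie within 2 units of the floor, Abca3 and Etv5 further above it, while Vim and Fn1 lie near 13 in both.

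Mesenchymal markers were bright in both lines. Vim, which encodes vimentin, was at 13.20 and 12.86 in LLC and 13.31 and 13.18 in MC38, and the fibronectin gene Fn1 at 12.62 and 12.84 against 12.57 and 13.01. The factors Snai2, Prrx1, Twist1 and Zeb1 were not called, Snai2 at 12.00 and 11.47 against 11.23 and 11.41. Of 26 tested markers 4 were higher in MC38 (Dcn, Col1a1, Loxl1 and Pdgfra) and 2 higher in LLC (Cdh2 and Acta2). The N-cadherin gene Cdh2 was at 8.04 and 8.89 in LLC and 5.14 and 5.28 in MC38, a difference of -3.26 ± 0.24. Acta2, smooth muscle actin, was at 8.64 and 7.84 against 6.24 and 5.96. Pdgfra, the receptor of PDGF-A, was at 8.77 and 7.05 against 10.93 and 9.08, and its call was lost without LLC sh Ctrl, LLC sh Spp1 or MC38 sh Ctrl.

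Markers of other cell types were looked at on the same scale. In such bulk samples fewer cells of a type and less RNA per cell cannot be told apart. The pan-leukocyte gene Ptprc was at 3.29 and 3.19 in LLC and 3.46 and 3.05 in MC38, below the floor on every array. Of 16 tested macrophage and leukocyte markers 1 was called, 6.25% against 6.36% over all genes. It was the integrin gene Itgax, higher in LLC, with a call lost without LLC sh Ctrl, LLC sh Spp1 or MC38 sh Ctrl. Among 9 T and B cell and 11 endothelial markers 0 were called, and the summed intensity of the 14 endothelial markers was 511 and 545 against 514 and 509. Of 11 tested mesothelial markers 2 were higher in MC38, Msln and Pdpn. Msln, a cell surface protein of mesothelium that many carcinomas also make, was at 5.22 and 4.69 in LLC and 10.06 and 10.15 in MC38, a difference of 5.15 ± 0.23. The podoplanin gene Pdpn was at 5.50 and 4.70 against 9.89 and 9.82. The mesothelial factor Wt1 and the uroplakin Upk3b were not called, Wt1 at 5.43 and 5.88 against 5.93 and 5.86.

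Counts by gene list were read against the background of 6.36%. The list of Hox genes had 37.1% of its tested members called, imprinted genes 35.7%, integrins 27.3%, and collagens with other matrix genes 22.4%. Interferon-stimulated genes had the highest share, 53.3%. The TCA cycle and the respiratory chain had 0 called members among 36 and 54 tested.

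**Figure D3:**
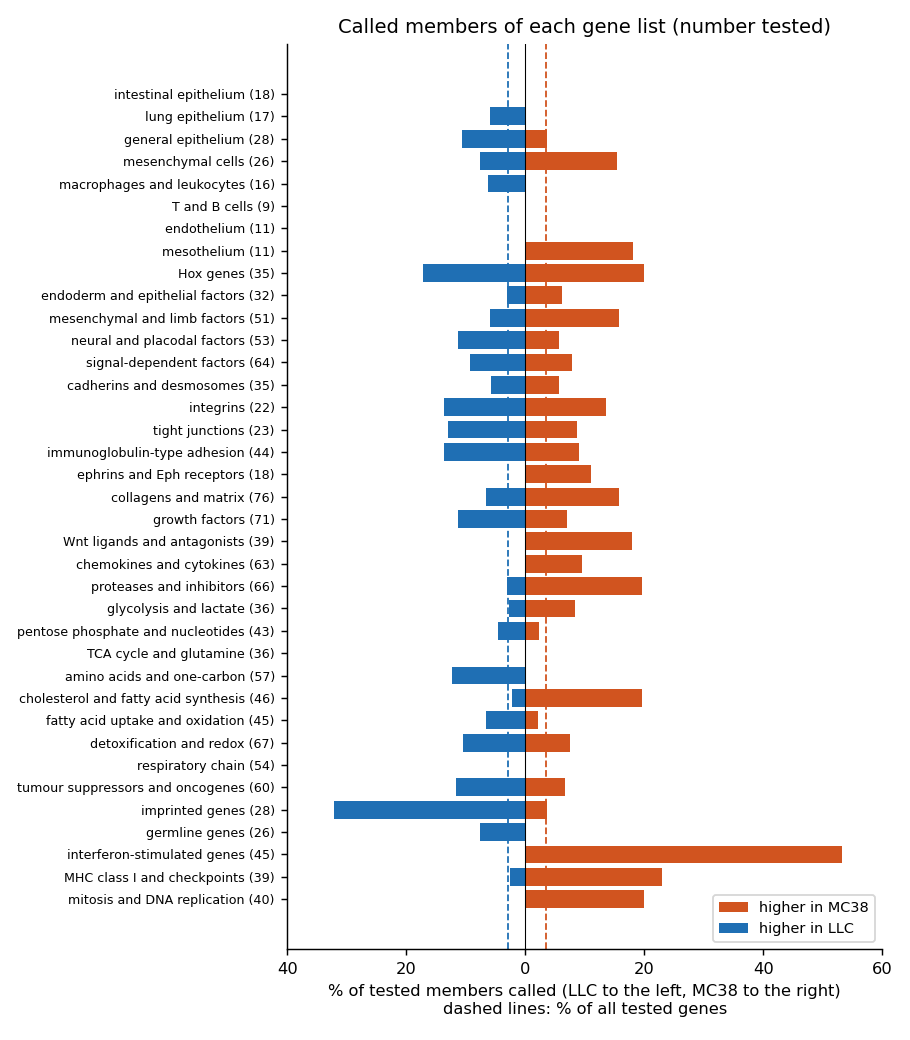
Percent of the tested members of each gene list with at least 5 tested (y axis, number tested in parentheses) that were called higher in MC38 (orange, to the right) or higher in LLC (blue, to the left). Dashed lines mark the shares over all tested genes, 3.53% and 2.83%. Among these lists the bars are longest to the right for interferon-stimulated genes and to the left for imprinted genes.

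Hox genes separated the lines by cluster. Of 39 genes 35 were tested, 7 were higher in MC38, 6 were higher in LLC and 22 were not called, with a median difference of 0.07. In the Hoxc cluster all 6 called genes were higher in MC38, and in the Hoxb and Hoxd clusters all 5 were higher in LLC. Hoxc10 was at 5.37 and 4.69 in LLC and 8.56 and 8.40 in MC38, a difference of 3.45 ± 0.22 (limma adjusted p = 0.00223). Hoxc6 was at 5.78 and 6.11 against 9.54 and 9.11, and Hoxc9 at 4.57 and 4.97 against 7.62 and 7.53. Hoxc11 was at 4.26 and 4.05 in LLC, below the floor, and at 6.57 and 7.58 in MC38. Hoxc8 and Hoxc4 differed by 1.88 and 1.92, the latter call lost without MC38 sh Ctrl, and Hoxc5, under the floor in the mean, had levels of 3.59 and 3.94 against 5.37 and 5.61. Hoxc12 and Hoxc13, at the 5′ end of the cluster, were not called. In the order of genes of GRCm38.p6 the called genes formed 2 runs of immediate neighbours, Hoxc9, Hoxc8 and Hoxc6, and Hoxc10 and Hoxc11 with the noncoding Hotair. Hotair, which is transcribed from within the cluster on the other strand, was at 5.04 and 5.03 in LLC and 6.81 and 7.06 in MC38.

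Hoxd10 and Hoxd9 went the other way. Hoxd10 was at 7.95 and 8.68 in LLC and 5.36 and 5.53 in MC38, a difference of -2.87 ± 0.22 (limma adjusted p = 0.00311). Hoxd9 was at 6.79 and 7.71 against 4.51 and 4.42. Their neighbour Hoxd8 was bright in both lines, at 7.73 and 7.93 against 8.25 and 8.08, and was not called. In the Hoxb cluster Hoxb2, Hoxb7 and Hoxb9 were higher in LLC, with differences of -1.65, -1.39 and -1.49, Hoxb7 losing its call without LLC sh Ctrl, LLC sh Spp1 or MC38 sh Spp1 and Hoxb9 without MC38 sh Ctrl. In the Hoxa cluster Hoxa9 was at 4.78 and 5.39 in LLC and 8.03 and 8.33 in MC38, a difference of 3.10 ± 0.20. Hoxa2 was higher in LLC with a difference of -1.58, a call lost without LLC sh Ctrl, LLC sh Spp1 or MC38 sh Ctrl, while Hoxa7 was at 8.10 and 8.47 against 8.11 and 8.48. Over the fits that left out 1 array, 6 to 8 Hox genes were called higher in MC38 and 4 to 5 higher in LLC.

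**Figure D4:**
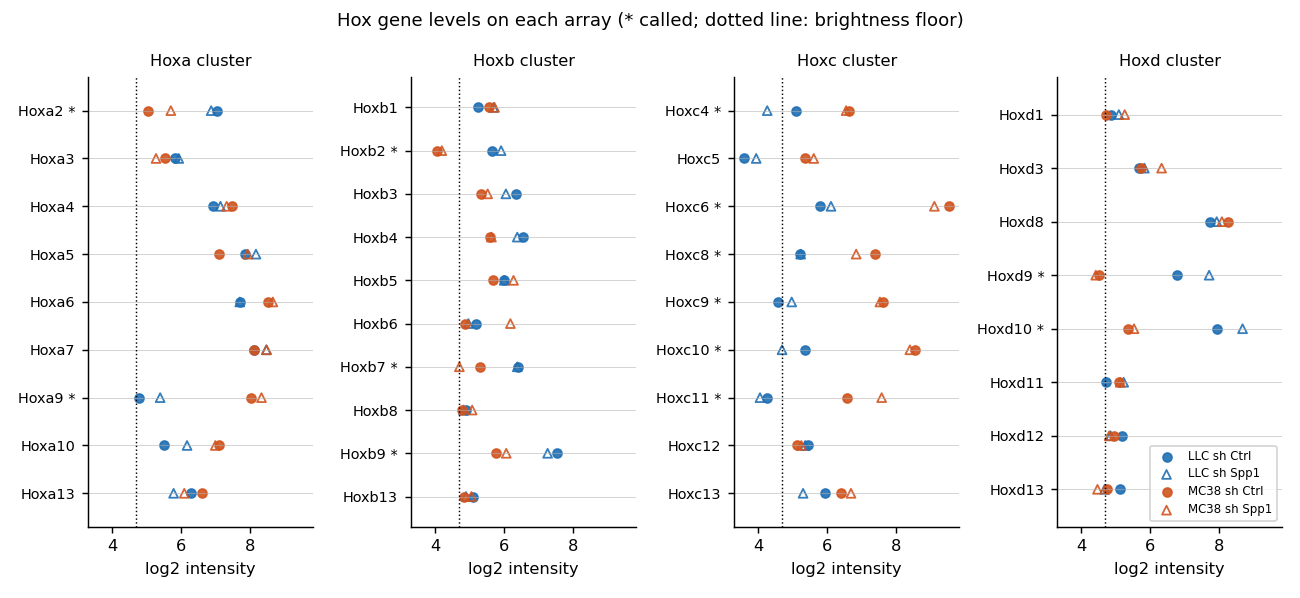
Log2 intensity (x axis) of each Hox gene with a probe set, by cluster, on the 4 arrays. Blue marks LLC and orange MC38, filled circles sh Ctrl and open triangles sh Spp1, the dotted line the brightness floor of 4.68 and an asterisk a called gene. From Hoxc4 to Hoxc11 the MC38 points lie to the right of the LLC points, and for Hoxd9 and Hoxd10 to the left.

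Factors of mesenchyme and limb were called in both directions, 8 higher in MC38 and 3 higher in LLC of 51 tested. Among the forkhead factors of gut and lung mesenchyme, Foxf1 was at 8.62 on both LLC arrays and 10.54 and 10.29 in MC38, while Foxf2 was at 7.41 and 8.04 in LLC, against 5.05 and 4.80 in MC38. The paralogs thus differed in opposite directions, by 1.79 ± 0.20 and -2.80 ± 0.27 (limma adjusted p = 0.00836 and 0.00561). The early B cell factors did likewise: Ebf1 was at 7.37 and 6.80 against 9.26 and 9.59, and Ebf3 at 7.51 and 7.88 against 5.43 and 5.84. Tbx18, a T-box factor of mesothelium and epicardium, and the tendon factor Mkx were higher in MC38 by 2.44 and 2.14. Dlx2, a homeobox factor of the branchial arches, was higher in LLC, at 9.02 and 9.54 against 7.30 and 7.60. The list had 4 genes higher in MC38 without LLC sh Spp1 and 5 without MC38 sh Ctrl.

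Neural and placodal factors had 6 genes higher in LLC and 3 higher in MC38 of 53 tested. Zic2, a zinc finger factor of the dorsal neural tube, was at 8.30 and 8.79 in LLC and 5.78 and 5.29 in MC38, a difference of -3.01 ± 0.28. The ventral neural tube factor Nkx2-2 was at 7.18 and 8.05 against 5.32 and 5.42, and the paired-box factors Pax3 and Pax6 were higher in LLC with differences of -2.19 and -1.62. Emx2, a homeobox factor of forebrain and kidney, was the MC38 gene with the largest difference, at 4.48 and 4.45 against 7.70 and 7.39. The other two, Pitx1 and Meis2, lost their calls when any array was left out, so 1 gene was called higher in MC38 in each of those fits. The deposited values gave 1 higher in MC38 and 8 higher in LLC. On those values, here and below, a call depended almost on the size of the difference alone.

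Of 32 tested endoderm and epithelial factors, 29 were not called, and the share called was 9.38% against 6.36% over all genes. Sox9, a factor of intestinal crypts and of cartilage, was at 8.16 and 7.89 in LLC and 9.46 and 9.86 in MC38, a difference of 1.63 ± 0.24. Klf4, a factor of differentiated epithelium, was at 7.05 and 7.53 against 9.07 and 8.94. Both were higher in MC38, and the third, Foxa2, is described above.

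Among 64 signal-dependent factors 5 were higher in MC38 and 6 higher in LLC. Pparg, the fatty acid receptor of adipocytes, was at 6.56 and 7.38 in LLC and 4.41 and 4.46 in MC38, a difference of -2.54 ± 0.25. Myc was bright in both lines and higher in LLC, at 11.71 and 11.96 against 10.08 and 10.35. The Notch target Hes1 was at 5.69 and 5.94 in LLC and 7.67 and 7.62 in MC38. Irf1, an interferon-regulated factor, was higher in MC38 by 2.42, a call lost without LLC sh Spp1. Over the fits that left out 1 array 2 to 3 genes of the list were called higher in LLC, 2 without MC38 sh Ctrl and 3 without each other array. Higher in MC38 were 5 without MC38 sh Spp1 and 3 without each other array. The deposited values gave 8 higher in MC38 and 4 higher in LLC, and arrays centred on their medians 7 and 5.

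Most tested members of each adhesion family were not called. Shares called ran from 11.1% for ephrins and Eph receptors to 27.3% for integrins, against 6.36% over all genes. Of 35 tested cadherins and desmosomal genes 4 were called. Cdh2, given above, and Pkp2, plakophilin of the desmosomal plaque, were higher in LLC, Pkp2 at 8.61 and 8.53 against 5.85 and 6.45. The protocadherins Pcdh19 and Pcdh18 were higher in MC38, Pcdh19 at 5.06 and 4.53 in LLC and 8.42 and 8.88 in MC38, a difference of 3.85 ± 0.28 (limma adjusted p = 0.00269).

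Integrins were called in equal numbers, 3 and 3 of 22 tested. Itgb3, the beta chain of a vitronectin and osteopontin receptor, was at 5.32 and 5.44 in LLC and 8.63 and 7.93 in MC38, a difference of 2.90 ± 0.26. Itgb8, the beta chain of a receptor that activates latent TGF-beta, was at 6.45 and 6.28 against 8.98 and 8.74. The leukocyte integrin chain Itgb2 was higher in MC38 by 2.47, a call lost without LLC sh Spp1. Itga1, the alpha chain of a collagen receptor, was at 7.48 and 7.67 in LLC and 5.42 and 4.30 in MC38. Itga7 and Itgax, the other integrin genes higher in LLC, each lost the call without 3 of the arrays, so that 1 was left without LLC sh Ctrl and 1 without MC38 sh Ctrl.

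At tight junctions the LLC genes were F11r, Cxadr and Ocln and the MC38 genes Cldn9 and Cldn6, of 23 tested. F11r, junctional adhesion molecule A, was at 8.12 and 8.82 in LLC and 5.32 and 5.56 in MC38, a difference of -3.03 ± 0.21 (limma adjusted p = 0.00248). Cxadr, the coxsackievirus and adenovirus receptor, was at 7.47 and 7.28 against 5.83 and 5.89. Cldn9 was at 5.73 and 6.03 in LLC and 8.31 and 8.57 in MC38. Its genomic neighbour Cldn6 was higher by 1.21, a call lost without LLC sh Spp1, MC38 sh Ctrl or MC38 sh Spp1.

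Immunoglobulin-type and other surface adhesion genes had 4 higher in MC38 and 6 higher in LLC of 44 tested. Eng, endoglin, a co-receptor for BMP9 and TGF-beta, was at 9.58 and 10.19 in LLC and 5.88 and 6.04 in MC38, a difference of -3.92 ± 0.21. The glypican Gpc6 and the sialomucin Podxl were higher in LLC with differences of -3.57 and -2.26. Cd34, a sialomucin of progenitors and stroma, was at 9.86 and 6.43 in LLC and 12.58 and 12.32 in MC38. Its LLC arrays differed by more than 3 units, and the call was lost without MC38 sh Ctrl or MC38 sh Spp1. In those 2 fits 1 gene of the list was called higher in MC38, and without LLC sh Spp1 it was 2. The count higher in LLC was 3 without MC38 sh Spp1. Of 18 tested ephrins and Eph receptors, 2 were called, both higher in MC38, the receptor Ephb4 at 7.21 and 7.31 against 9.18 and 9.47 and its ligand Efnb2 at 7.28 and 8.39 against 8.83 and 9.35. The call of Efnb2 was lost without LLC sh Ctrl, MC38 sh Ctrl or MC38 sh Spp1.

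Among secreted products, 12 of 76 tested collagens and matrix genes were higher in MC38, 5 were higher in LLC and 59 were not called. The median difference was 0.11. The small proteoglycan biglycan, Bgn, was at 8.36 and 7.07 in LLC and 13.26 and 13.12 in MC38, a difference of 5.47 ± 0.31 (limma adjusted p = 0.00176). Its relative decorin, Dcn, was at 7.54 and 6.34 against 11.47 and 11.11. Thrombospondin 1, Thbs1, an inhibitor of angiogenesis, was at 8.17 and 7.18 against 12.42 and 12.38. Col6a3, a chain of collagen VI, and Col1a1, a chain of collagen I, were higher in MC38 by 4.04 and 3.47, and the crosslinking enzyme Loxl1 by 2.82. Col1a2, the partner chain of Col1a1, was at 5.76 and 5.55 in LLC and 6.28 and 6.25 in MC38 and was not called.

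LLC had its own matrix genes. Dermatopontin, Dpt, which binds decorin and collagen fibrils, was at 10.92 and 8.42 in LLC, against 4.36 and 4.28 in MC38. The difference was -5.35 ± 0.55 (limma adjusted p = 0.00692). Lama5, the alpha chain of basement membrane laminins of epithelia, was at 9.94 and 10.62 against 5.97 and 5.78. Efemp1, a fibulin, was at 9.33 and 9.27 against 5.75 and 5.20, and Emilin2 differed by -1.52, a call lost without MC38 sh Spp1. For each of Bgn, Dcn, Thbs1, Dpt, Lama5 and Efemp1 the lines did not overlap. These genes were named for large called differences, so the separation is no further support. The count higher in LLC was 3 without MC38 sh Spp1 and 4 to 5 in the fits without another array.

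Of 66 tested proteases and inhibitors 13 were higher in MC38, 2 were higher in LLC and 51 were not called, with a median difference of 0.13. On the deposited values without quantile normalization the counts were 13 and 5. Beside Mmp2 these included the stromelysin Mmp10, at 6.20 and 5.15 in LLC and 8.96 and 7.97 in MC38, with a call lost without LLC sh Spp1. Adam19 was at 5.63 and 5.19 against 8.04 and 8.14, the aggrecanase Adamts5 at 4.96 and 5.63 against 7.84 and 7.56, and the cystatin Cst6 at 4.25 and 4.47 against 6.25 and 6.67. The gelatinase Mmp9 was at 6.09 and 5.43 in LLC and 9.10 and 7.03 in MC38, and its call was lost without LLC sh Ctrl, LLC sh Spp1 or MC38 sh Ctrl. The 2 genes higher in LLC were inhibitors. Tfpi, the tissue factor pathway inhibitor, was at 10.50 and 10.34 in LLC and 8.29 and 7.05 in MC38, a difference of -2.75 ± 0.30, and the metalloproteinase inhibitor Timp3 at 6.05 and 6.19 against 4.72 and 4.16, a call lost without LLC sh Spp1. The count higher in MC38 fell to 8 without LLC sh Spp1, without MC38 sh Ctrl or without MC38 sh Spp1, and the count higher in LLC was 4 without LLC sh Ctrl.

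Growth factors had 5 genes higher in MC38 and 8 higher in LLC of 71 tested. Inhba, the activin A subunit, was at 5.44 and 5.69 in LLC and 9.77 and 9.13 in MC38, a difference of 3.89 ± 0.27 (limma adjusted p = 0.00242). Bmp2 was higher in MC38 by 2.21, with a call lost without LLC sh Spp1 or MC38 sh Ctrl. Adrenomedullin, Adm, a vasodilator peptide, was at 8.82 and 8.87 in LLC and 4.94 and 4.70 in MC38. Pleiotrophin, Ptn, was at 8.64 and 7.83 against 5.77 and 4.88, and Pros1, the protein S ligand of TAM receptors, at 8.45 and 7.61 against 5.14 and 5.75. Pdgfc was higher in LLC with a difference of -2.32 and lost its call without LLC sh Spp1. The number of growth factors higher in LLC was 3 without LLC sh Spp1 and 4 without MC38 sh Spp1, and the number higher in MC38 was 3 without LLC sh Spp1 and 3 without MC38 sh Ctrl.

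Of 39 tested ligands and antagonists 7 were higher in MC38 and 0 higher in LLC, although 1 was called higher in LLC without LLC sh Ctrl, without LLC sh Spp1 or on the deposited values. Wnt5a, a ligand of the noncanonical pathway, was at 5.10 and 5.78 in LLC and 8.17 and 8.05 in MC38, a difference of 2.67 ± 0.25. Wnt10b was at 5.27 and 5.34 against 7.43 and 7.46, and Wnt7b at 7.07 and 7.54 against 9.14 and 9.30. Antagonists were among the called genes, Dkk3 at 5.97 and 5.77 against 8.28 and 7.86, and the BMP antagonist Grem1 at 9.84 and 9.34 against 11.21 and 11.33. Porcn, the acyltransferase that lipidates Wnt proteins for secretion, was not in the list and was at 6.30 and 6.56 in LLC and 8.09 and 8.65 in MC38. Axin2, a target of canonical Wnt signalling, was not called, at 5.49 and 5.77 against 6.16 and 5.78.

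Of 63 tested chemokines and cytokines 6 were higher in MC38 and 0 higher in LLC. This was 9.52% called against 6.36% over all genes, with a median difference of 0.04. Ccl5, a chemoattractant of T cells and monocytes, was at 5.98 and 5.69 in LLC and 11.18 and 9.76 in MC38, a difference of 4.64 ± 0.31 (limma adjusted p = 0.0023). Cxcl10, an interferon-inducible chemoattractant, was at 5.54 and 5.70 against 11.52 and 8.25, and its call was lost without LLC sh Ctrl or LLC sh Spp1. The alarmin Il33 was at 5.77 and 5.39 against 9.34 and 8.70, and the membrane-bound chemokine Cx3cl1 at 7.09 and 6.45 against 9.13 and 9.86. With LLC sh Spp1 left out 3 genes were called higher in MC38 and 4 higher in LLC, and on the deposited values 6 and 4.

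Few genes of central carbon metabolism were called. Of 36 TCA cycle and glutamine genes 0 were called, with a median difference of -0.13, and of 54 respiratory chain genes 0, with a median of -0.09. Glutamine synthetase, Glul, had the TCA list's largest difference, at 9.42 and 9.26 in LLC and 8.49 and 8.32 in MC38 (limma adjusted p = 0.0501). Of 36 glycolysis genes 4 were called. The lactate exporter Slc16a3 was at 7.21 and 6.76 in LLC and 9.53 and 9.83 in MC38, a difference of 2.70 ± 0.25, while the high-affinity glucose transporter Slc2a3 was at 6.57 and 6.90 against 5.09 and 4.68. Ldhb, the heart-type lactate dehydrogenase subunit, was higher in MC38 by 1.58, a call lost without LLC sh Ctrl or MC38 sh Ctrl, and Ldha was not called, at 9.23 and 8.73 against 8.48 and 8.52. The main glucose transporter Slc2a1 was at 11.48 and 11.55 against 11.76 and 12.00. Glycolysis genes higher in MC38 numbered 1 without MC38 sh Ctrl and 2 without any other array, and on the deposited values 3 were higher in MC38 and 2 higher in LLC.

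Amino acid genes were called in the LLC direction, 7 of 57 tested against 0, with a median difference of -0.22. Cth, the last enzyme of transsulfuration and a source of cysteine, was at 10.17 and 10.86 in LLC, against 7.21 and 4.83 in MC38. The difference was -4.49 ± 0.68 (limma adjusted p = 0.0227), lost without LLC sh Spp1. Slc1a3, a glutamate and aspartate transporter, was at 7.13 and 7.08 against 4.31 and 3.98. The arginine transporter Slc7a3 was at 6.75 and 8.90 against 4.67 and 4.54, a call lost without MC38 sh Ctrl or MC38 sh Spp1. Slc38a4, an imprinted neutral amino acid transporter, was at 10.53 and 10.49 against 6.94 and 8.54, a call lost without LLC sh Ctrl or LLC sh Spp1. Calls higher in LLC numbered 5 without LLC sh Ctrl and 3 without each of the other arrays, and 1 gene was called higher in MC38 without MC38 sh Ctrl. On the deposited values 6 were higher in LLC and 1 higher in MC38, and with arrays centred on their medians 7 and 1.

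Of 46 tested genes of cholesterol and fatty acid synthesis and transport 9 were higher in MC38, 1 was higher in LLC and 36 were not called, with a median difference of 0.37. On the deposited values the counts were 9 and 3. Ebp, the sterol isomerase, was at 6.44 and 6.39 in LLC and 8.50 and 8.95 in MC38, a difference of 2.31 ± 0.22. Fads2, the delta-6 desaturase, was at 10.64 and 10.38 against 12.09 and 12.18, and the cholesterol exporter Abca1 at 5.72 and 5.39 against 8.57 and 7.86. The mevalonate pathway enzyme Fdps was at 9.80 and 8.83 against 11.10 and 10.64, and its call was lost without LLC sh Spp1, MC38 sh Ctrl or MC38 sh Spp1. Hmgcs1, an early enzyme of the pathway, and its regulator Srebf2 were not called, Hmgcs1 at 9.29 and 9.02 against 10.18 and 9.18, and Srebf2 at 10.18 and 10.58 against 10.22 and 10.07. The count higher in MC38 fell from 9 to 3 without LLC sh Spp1, to 3 without MC38 sh Ctrl and to 5 without MC38 sh Spp1.

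In fatty acid uptake and oxidation 3 of 45 tested genes were higher in LLC and 1 higher in MC38, 8.89% called against 6.36% over all genes. Lipoprotein lipase, Lpl, was at 6.62 and 8.21 in LLC and 4.22 and 3.76 in MC38, a difference of -3.42 ± 0.47. Ppargc1a, a coactivator of mitochondrial genes, was at 5.76 and 5.81 against 8.48 and 8.08. Detoxification genes had 7 higher in LLC and 5 higher in MC38 of 67 tested. Ephx1, the microsomal epoxide hydrolase, was higher in LLC with a difference of -3.01 ± 0.22, and the drug exporter Abcg2 at 6.61 and 6.46 against 3.47 and 4.46. Glutathione transferases were called both ways, Gstm2 and Gstk1 higher in LLC with differences of -2.02 and -2.19 and Gstt3 higher in MC38 by 1.61. Detoxification genes higher in MC38 numbered 1 without MC38 sh Ctrl, 2 without LLC sh Spp1 or MC38 sh Spp1 and 4 without LLC sh Ctrl, while the deposited values gave 3 higher in MC38 and 7 higher in LLC. Of 43 pentose phosphate and nucleotide genes 3 were called, 6.98%, near the background, with 5 called without LLC sh Ctrl and 1 without each other array. Centring arrays on their medians turned 1 higher in MC38 and 2 higher in LLC into 3 and 2 there, and gave 2 higher in MC38 and 3 higher in LLC for fatty acid uptake and oxidation.

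Among genes often altered in tumours 7 were higher in LLC and 4 higher in MC38 of 60 tested. Cyclin D2, Ccnd2, was at 11.22 and 11.72 in LLC and 7.30 and 5.01 in MC38, a difference of -5.31 ± 0.62 (limma adjusted p = 0.0102), while Ccnd1 was at 11.41 and 11.72 against 11.88 and 11.86. The receptor Egfr was at 9.37 and 8.76 in LLC and 5.68 and 5.13 in MC38. Smad4, the common mediator of TGF-beta and BMP signals, was at 10.48 and 10.26 against 8.82 and 8.57, and the receptor Tgfbr2 at 8.32 and 7.72 against 9.70 and 9.91, so the pathway's members differed in opposite directions. Cdkn1a and Mdm2, both targets of p53, were higher in LLC with differences of -1.53 and -1.51. The call of Cdkn1a was lost without LLC sh Spp1 or MC38 sh Ctrl and that of Mdm2 without LLC sh Spp1, MC38 sh Ctrl or MC38 sh Spp1. Of the genes higher in MC38, 1 was left without LLC sh Spp1, without MC38 sh Ctrl or without MC38 sh Spp1. Those higher in LLC numbered 4 without MC38 sh Ctrl. On the deposited values 2 were higher in MC38 and 8 higher in LLC.

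Of the 3 sex chromosome genes tested, Xist alone was called. Ftx, a noncoding neighbour of Xist, was at 8.64 and 8.25 in LLC, against 8.49 and 8.47 in MC38. The Y-linked genes Eif2s3y, Kdm5d, Uty, Usp9y and Zfy2 were below the floor on all 4 arrays, at 2.64 to 3.86. Sry was not called, with a difference of 0.12.

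Imprinted genes were called almost in 1 direction, 9 of 28 tested higher in LLC and 1 higher in MC38, while the median difference was -0.08. Grb10, an adaptor that restrains growth factor signalling, was at 9.29 and 10.25 in LLC and 4.56 and 4.54 in MC38, a difference of -5.22 ± 0.28 (limma adjusted p = 0.00166). The zinc finger gene Peg3 was at 10.57 and 9.05 against 5.31 and 5.24. Sgce and Peg10, neighbours that share a paternal promoter region, were higher in LLC with differences of -3.97 and -1.84, and Mest with -2.66, a call lost without MC38 sh Ctrl. The imprinted growth factor Igf2 was at 5.65 and 5.64 against 5.82 and 5.91 and was not called. The gene higher in MC38 was Dcn, which also belongs to the matrix list. Of the genes higher in LLC, 5 were called without LLC sh Ctrl, 5 without LLC sh Spp1 and 6 without each of the MC38 arrays. Higher in MC38 were 3 without MC38 sh Ctrl, and on the deposited values 7 were higher in LLC and 2 higher in MC38. Germline genes had 2 of 26 called, 7.69% against 6.36% over all genes. They were the X-linked Rhox5, at 10.46 and 10.58 in LLC and 6.55 and 6.52 in MC38, and Xlr3c, at 7.50 and 7.98 against 4.26 and 3.84. Without LLC sh Ctrl 4 germline genes were called.

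Interferon-stimulated genes formed the list with the largest share called. Interferons bind cell surface receptors, and a complex of transcription factors then binds an element in the promoters of these genes, the interferon-stimulated response element. Of 45 tested members 24 were higher in MC38, 0 were higher in LLC and 21 were not called, and the median difference was 2.77 against 0 over all genes. The median was 3.63 between the sh Ctrl arrays and 1.45 between the sh Spp1 arrays. Promoters of 4 of the called genes are shown because they carry that element. They run from 250 bases before to 50 bases after the start, on the gene's strand, from RefSeq on GRCm38.p6, with capitals where GAAANNGAAA or its reverse TTTCNNTTTC was found. They are Oas1g (chr5:120887564-120887863, minus strand), Ifit1 (chr19:34640639-34640938, plus strand), Ifih1 (chr2:62646206-62646505, minus strand) and Rsad2 (chr12:26456403-26456702, minus strand).
Oas1g: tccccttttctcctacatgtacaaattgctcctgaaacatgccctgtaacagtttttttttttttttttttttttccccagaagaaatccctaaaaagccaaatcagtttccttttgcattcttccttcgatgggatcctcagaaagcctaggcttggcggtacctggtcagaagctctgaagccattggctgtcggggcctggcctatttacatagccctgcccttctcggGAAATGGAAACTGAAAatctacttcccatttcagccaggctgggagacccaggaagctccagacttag
Ifit1: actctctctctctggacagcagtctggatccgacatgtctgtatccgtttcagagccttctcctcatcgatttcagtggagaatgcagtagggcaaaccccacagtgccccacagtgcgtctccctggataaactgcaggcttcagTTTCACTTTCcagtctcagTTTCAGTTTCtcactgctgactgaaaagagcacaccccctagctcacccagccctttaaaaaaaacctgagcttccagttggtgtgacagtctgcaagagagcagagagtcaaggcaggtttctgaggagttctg
Ifih1: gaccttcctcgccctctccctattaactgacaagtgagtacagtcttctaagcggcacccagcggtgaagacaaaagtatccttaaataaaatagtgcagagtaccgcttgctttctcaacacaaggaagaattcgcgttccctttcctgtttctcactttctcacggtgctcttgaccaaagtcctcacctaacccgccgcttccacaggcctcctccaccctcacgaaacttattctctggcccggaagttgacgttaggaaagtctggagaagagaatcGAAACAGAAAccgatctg
Rsad2: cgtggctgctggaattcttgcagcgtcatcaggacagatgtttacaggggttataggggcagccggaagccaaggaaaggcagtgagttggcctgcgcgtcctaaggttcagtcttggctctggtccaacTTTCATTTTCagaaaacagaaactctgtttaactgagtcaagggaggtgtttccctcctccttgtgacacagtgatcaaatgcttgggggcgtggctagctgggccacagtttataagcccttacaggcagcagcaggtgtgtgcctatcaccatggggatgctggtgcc
Oas1g and Ifit1 hold 2 matches each, those of Oas1g overlapping, and Ifih1 and Rsad2 hold 1. In Ifih1 the match lies behind the start. Of the 24 called members 18 had a promoter in the table and 9 of these, or 50%, held the element on either strand. Of the 21 members not called 16 had one, and 8, again 50%, held it. The element was in 3.44% of all 32851 promoter windows. Counted by gene, with a match in any of its windows, it was in 3.47% of tested genes with a promoter. By the same count it was in 10.1% of genes called higher in MC38, the 9 above among them, and in 2.32% of those called higher in LLC. A match describes the sequence and is not a measured site.

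Ifih1 (Entrez gene 71586), the sensor of long double-stranded RNA, was at 5.16 and 4.55 in LLC and 10.63 and 9.18 in MC38, a difference of 5.05 ± 0.26 (limma adjusted p = 0.00154). Ifit1 (Entrez gene 15957), which binds foreign RNA caps, was at 5.00 and 4.94 against 10.99 and 9.35. These 2 kept the call whichever array was left out. Oas1g, an oligoadenylate synthetase, was at 3.13 and 3.61 in LLC and 10.56 and 7.30 in MC38, and Oasl2 at 5.41 and 5.20 against 11.97 and 8.60. The antiviral radical enzyme Rsad2 was at 5.67 and 5.03 against 11.48 and 9.10, and the deubiquitinase Usp18, a brake on interferon signalling, at 6.28 and 5.35 against 12.01 and 8.09. On every one of these genes the MC38 sh Spp1 array lay below the MC38 sh Ctrl array and above both LLC arrays. The genes were picked for large called differences, so lying above the LLC arrays is no further support. Rsad2 lost the call without LLC sh Spp1, and Oas1g, Oasl2 and Usp18 without LLC sh Spp1 or LLC sh Ctrl.

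The number of calls in this list moved with the array left out. It was 8 without LLC sh Ctrl, 2 without LLC sh Spp1, 20 without MC38 sh Ctrl and 40 without MC38 sh Spp1. Under the 3 other scalings it was 24 to 38, the 38 on the deposited values, where a call depended almost on size alone. By size alone, 29 members were at least 2-fold higher in MC38 in both pairs. Among those not called, Oas2 was at 5.36 and 4.67 in LLC and 10.78 and 6.35 in MC38, and Irf7 at 5.44 and 5.50 against 9.97 and 6.33.

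**Figure D5:**
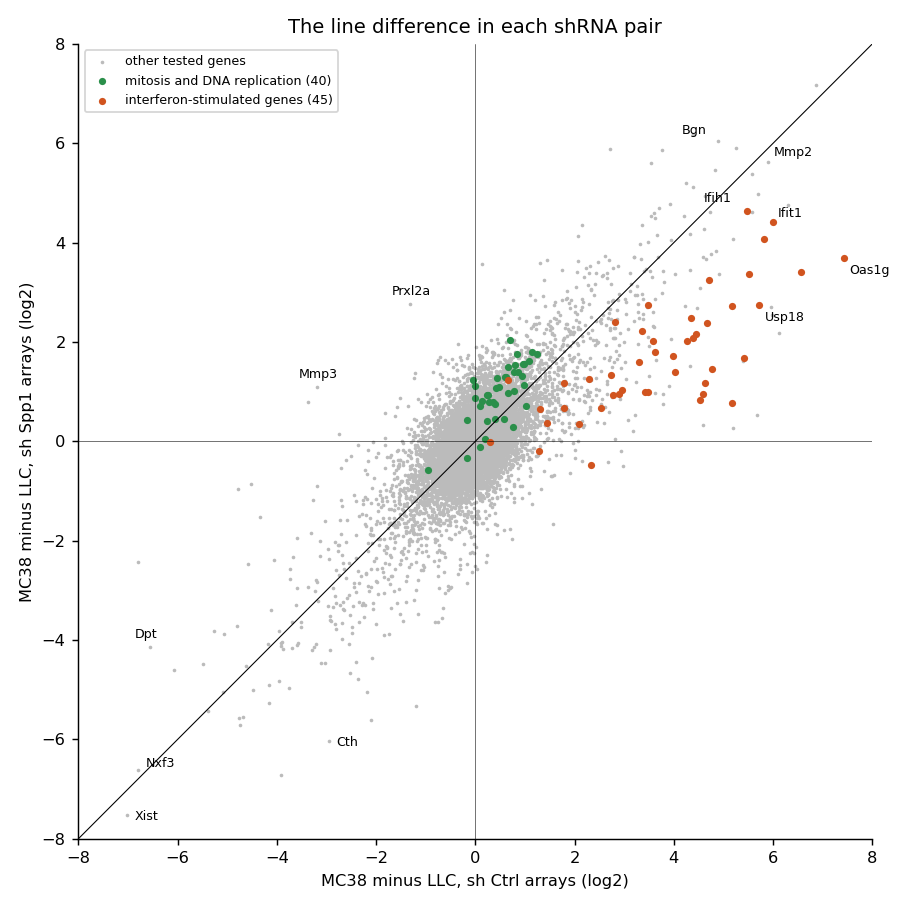
Difference MC38 minus LLC between the sh Ctrl arrays (x axis, log2) and between the sh Spp1 arrays (y axis, log2) for 16645 tested genes, with the line of equality. Interferon-stimulated genes (orange, 45) lie to the right of 0 and mostly below the line, at medians of 3.63 and 1.45. Genes of mitosis and DNA replication (green, 40) lie nearer 0, at medians of 0.52 and 1.05, and Mmp3 and Prxl2a lie at the upper left.

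MHC class I and checkpoint genes had 9 higher in MC38 and 1 higher in LLC of 39 tested, with a median difference of 0.47. The class I heavy chain H2-K1 was at 8.66 and 9.45 in LLC and 11.93 and 11.40 in MC38, a difference of 2.61 ± 0.34 (limma adjusted p = 0.0143). H2-Q4 was at 6.24 and 5.54 against 9.29 and 8.33, and the immunoproteasome subunit Psmb8 at 6.19 and 5.79 against 9.10 and 7.97, with a call lost without LLC sh Spp1. The light chain B2m was bright in both lines, at 13.03 and 13.00 against 13.46 and 13.32, and the checkpoint ligand Cd274 was not called, at 6.22 and 7.03 against 7.32 and 6.86. The NKG2D ligand Ulbp1 was at 6.63 and 6.17 in LLC and 8.55 and 8.87 in MC38. Calls higher in MC38 numbered 6 without LLC sh Ctrl, 5 without LLC sh Spp1, 4 without MC38 sh Ctrl and 12 without MC38 sh Spp1.

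Genes of mitosis and DNA replication leaned to MC38. Of 40 tested 8 were higher in MC38 and 0 higher in LLC, with a median difference of 0.76. Foxm1, the factor of G2 and M phase genes, was at 8.54 and 8.30 in LLC and 9.63 and 9.93 in MC38, a difference of 1.36 ± 0.22, and E2f2 was at 6.25 and 6.35 against 7.48 and 8.10. The replication licensing factor Cdc6 was at 8.21 and 7.53 against 9.35 and 9.32. None of these 8 calls was made in all 4 fits with 1 array left out, which gave 16 calls without LLC sh Ctrl, 2 without MC38 sh Ctrl and 0 without LLC sh Spp1 or without MC38 sh Spp1. Growth rate or density of the cultures was not analysed here.

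Some called genes lay beside each other on the chromosome. Slit2, a secreted guidance cue, was at 6.15 and 6.62 in LLC and 10.48 and 10.80 in MC38, a difference of 4.26 ± 0.19 (limma adjusted p = 0.00142). Mir218-1, which lies in an intron of Slit2, was at 5.03 and 3.34 against 9.24 and 7.87. Whether its probe set reads the precursor or the host transcript was not tested. The mature strands of Mir218-1 (chromosome 5, plus strand, RefSeq on GRCm38.p6) are shown because the seed, bases 2 to 8 in capitals, is what pairs with target messages.
mmu-miR-218-5p: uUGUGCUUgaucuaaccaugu
mmu-miR-218-1-3p: aAACAUGGuuccgucaagcacc
On the LLC side Mir669k, Mir669g, Mir669j and Mir466b-2, miRNA genes within an intron of the imprinted gene Sfmbt2, had a median difference of -2.03. The call of Mir669k was lost without MC38 sh Spp1, that of Mir669j without LLC sh Spp1 or either MC38 array, and that of Mir466b-2 without LLC sh Ctrl or either MC38 array. Sfmbt2 itself was at 5.64 and 7.11 in LLC and 4.13 and 4.63 in MC38, with a call lost without LLC sh Spp1, MC38 sh Ctrl or MC38 sh Spp1.

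The difference between the lines was not the same in the 2 shRNA pairs for every gene. It moved by at least 2 log2 units for 150 genes and by at least 1 for 1134, and it had the same sign in both pairs for 65.2% of tested genes. With 1 array per line and shRNA this has no test. Ranbp3l was at 10.91 and 6.39 in LLC and 4.11 and 3.95 in MC38, so the difference was -6.80 between the sh Ctrl arrays and -2.44 between the sh Spp1 arrays. Cxcl5, a neutrophil chemoattractant, was at 10.22 and 6.18 against 5.44 and 5.23, and the hormone Stc1 at 8.71 and 4.88 against 4.20 and 4.03. In these the LLC sh Ctrl array stood above the other 3. In Phf11d it was the MC38 sh Ctrl array, at 9.37, against 3.69 and 4.05 in LLC and 4.57 on MC38 sh Spp1. The interferon-inducible genes Ifi204, Ifi205 and Apol9b had the same form, with changes of -4.26, -3.77 and -3.95. The lactonase gene Pon3 was at 9.04 and 9.47 in LLC and 7.84 and 4.13 in MC38.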

How the data were processed

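RNA of each sample was taken with Trizol and spin columns and biotin labelled, per the labels' protocols. The deposited values are linear intensities, 1 per probe set and array; RMA is named by the submitters' processing notes, and GeneSpring GX 12.5 by the series text. Array design, build and annotation are not given in the sources used here. Array medians were 37.2 to 64.2, and 4 arrays limit the precision.

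Values were log2 transformed and quantile normalized over the 4 arrays. Of 41345 probe sets 23521 had 1 gene symbol, 1814 several and 16010 none; the brightest stood for its gene, giving 22180 genes, of which those reaching the 30th percentile of mean log2 intensity were tested. Line and shRNA were fitted with limma 3.58.1 (lmFit, eBayes) in R 4.3.3, two-sided, with Benjamini-Hochberg adjustment over all tested genes and a call at an adjusted p under 0.05. Steps were tested on simulated data.

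Named are the 15 genes with the largest difference in each direction among those called, passing over clones, predicted genes and pseudogenes, up to 6 called members of a list in each direction (2 where none was called), the epithelial and sex chromosome markers, and the 6 genes in each direction whose difference changed most with shRNA. Hotair, Hoxc8, Cst6, Usp18, Porcn, Slit2, Mir218-1, Sfmbt2 and the miRNA genes near it were chosen after their values were seen. So were the uncalled members set beside called ones. The members and lists were chosen with earlier results of these data known, so no count is independent support. Alternatives covered scaling, filter, probe set choice, threshold, the shRNA term, AE17 and each array.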

Additional observations from a re-analysis of the deposited data

Results flagged for a closer look

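In 2 of the 12 named genes whose line difference changed most with shRNA, that difference had opposite signs in the 2 pairs with a size of at least 1 in each; neither change was tested, since each line and shRNA had 1 array. Mmp3, which encodes stromelysin 1, was at 8.98 and 5.13 in LLC and 5.79 and 6.23 in MC38, so MC38 minus LLC was -3.20 between the sh Ctrl arrays and 1.10 between the sh Spp1 arrays, a change of 4.30. Prxl2a, a peroxiredoxin-like gene, was at 9.81 and 6.58 in LLC and 8.48 and 9.34 in MC38, with differences of -1.33 and 2.76, a change of 4.09. In both the LLC sh Ctrl array stood above the LLC sh Spp1 array by more than 3 units. Fabp4, a fatty acid carrier, also changed sign, from -3.38 to 0.80, a change of 4.17.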

How the results depend on the processing

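None of the 204 called genes named by the rule changed direction under an alternative run. Of genes not called, Robo4, Zap70, Blk, Mmp3, Fabp4 and Prxl2a changed sign under at least 1. An adjusted p under 0.01 left 359 genes (199 higher in MC38, 160 higher in LLC), a test against a log2 difference of 1 left 247 (143 and 104), and a fit of all 6 arrays left 44 (22 and 22), the cause of the last not tested. Leaving out single arrays gave 601 to 956 calls, 313 to 514 higher in MC38 and 253 to 442 higher in LLC: 618 (313 and 305) without LLC sh Spp1, 601 (330 and 271) without MC38 sh Ctrl and 688 without MC38 sh Spp1, fits with fewer arrays and no shRNA term. Without the shRNA term, which is the replicate block here, 823 genes were called (450 and 373), and 183 of 204 named calls were kept. Other runs kept fewer of these 204. It was 105 at an adjusted p under 0.01, 86 against a log2 difference of 1 and 14 with all 6 arrays. With the other scalings, filters, moderation and probe set rules 850 to 1156 were called. The deposited values kept 84.8% of calls and moved the median difference of all genes to -0.31 between the sh Ctrl arrays and 0.20 between the sh Spp1 arrays. On them the adjusted p of named genes followed the size of the difference almost alone. For Apol9b the limma adjusted p went from 0.0548 to 6.89e-23, so counts from that run do not reflect scaling only. Past 2-fold were 1454 genes in the sh Ctrl pair alone and 1846 in the sh Spp1 pair alone, against 898 in both. Genes whose difference changed by at least 2 log2 units with shRNA numbered 240 on the deposited values and 298 over every probe set, against 150. Signals near the floor limit the size of the largest differences.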

Other observations

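The gene groups here were put together after values had been seen, so only counts and levels are given. Of 28 tested targets of p53, the damage-responsive factor, 13 were higher in LLC, 0 higher in MC38 and 15 not called, with a median difference of -1.01, against 6.36% called over all genes. Of the 13, 2 kept the call whichever array was left out, so the 3 genes given next did not all keep it. Among those not called Plk2 and Plk3 differed by 0.45 and 0.42. Trp53inp1, a stress-induced p53 cofactor, was at 9.28 and 10.45 in LLC and 6.60 and 6.80 in MC38. Zmat3, an RNA-binding target, was at 9.85 and 10.69 against 7.30 and 8.25, and Eda2r at 8.01 and 9.67 against 5.48 and 5.02. On each of the 3 the LLC sh Spp1 array was the highest.

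Of 25 tested genes that sense or signal nucleic acids or form inflammasomes, 12 were higher in MC38, 0 higher in LLC and 13 not called. The share called over all genes was 6.36%. The group's median difference was 1.29, and its called member Ifih1 is also in the interferon-stimulated list. Those not called included Ticam1 at -0.73 and Irf3 at -0.28. Of the 12, 5 kept the call whichever array was left out. The DNA sensor Cgas was at 3.71 and 4.10 in LLC, against 6.82 and 7.13 in MC38, the endosomal RNA receptor Tlr3 at 5.14 and 4.47 against 9.74 and 8.19, and the inflammatory caspase Casp1 at 5.85 and 4.58 against 9.17 and 8.56. Casp1, Casp4 and Casp12 are immediate neighbours in the gene order of GRCm38.p6.

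Semaphorins, secreted or membrane-bound guidance cues, were called both ways, 3 higher in each line of 20 tested, against 6.36% called over all genes. Sema3e was at 9.50 and 9.64 in LLC and 4.12 and 4.21 in MC38, while Sema3d was at 4.08 and 3.78 against 9.79 and 8.76 and Sema7a at 6.22 and 6.26 against 8.89 and 8.75. The lines did not overlap on any of these 3 genes, which were chosen from the called ones.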
